A study of Drosophila melanogaster with 8 samples.

Results

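The genes described here encode the proteins of the cytoplasmic ribosome. They are the genes of the count table whose FlyBase symbol begins with RpL or RpS and a digit, or with RpLP, without the mitochondrial mRpL and mRpS genes. The table held 87 such genes among 17490, of which 51 encode large-subunit and 36 small-subunit proteins. In the annotation 92 genes follow the rule, and the other 5 (*RpL19*, *RpL27A*, *RpL31*, *RpS10b* and *RpS12*) were not analysed here. The 87 genes lie on every major chromosome arm, with 13 on X, 18 on 2L, 19 on 2R, 13 on 3L, 23 on 3R and 1 (*RpS3A*) on chromosome 4.

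A ribosome contains one copy of most of its proteins, and nearly all of them are made in every cell. The proteins of the small subunit bind and decode the mRNA, those of the large subunit surround the site of peptide bond formation and the tunnel through which the new chain leaves, and the acidic proteins *RpLP0*, *RpLP1* and *RpLP2* form a stalk that recruits the translation factors. In Drosophila most of these proteins are encoded by a single gene, loss of a single dose of many of them gives the Minute phenotype of slow development and short bristles, and a few have a second gene, often one used in the germ line.

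RNA was sequenced from heads of *Obp56h*-/- males, *Obp56h*-/- females, *CSB* males and *CSB* females, with 2 pools of 50 flies aged 3 to 5 days in each of the 4 groups. *Obp56h*-/- is a single deletion line made with CRISPR/Cas9 in the background of *CSB*, the Canton S-B control line, and its donor construct carried a *DsRed* marker driven by the 3XP3 promoter, which is active in the eye. Both lines were reared alike, and neither received a treatment. The comparisons ask whether the heads of null flies differ from those of control flies within each sex and whether the sexes differ within each line. *Obp56h* itself had counts of 0 and 0 in the male null libraries, against 110 and 106 in the male *CSB* libraries, and counts of 1 and 0 in the female null libraries, against 54 and 90 in the female *CSB* libraries.

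The libraries held 10127941 to 25918919 counted reads, and a floor of 3 counts stood at 0.122 to 0.276 CPM (counts per 1000000 reads, scaled by TMM). The 10 head markers (neuron, photoreceptor and glia genes such as *elav*, *ninaE* and *repo*) were all above 3 counts in every library and summed to 37300 to 40700 CPM. The 16 testis, 12 accessory gland and 13 ovary markers summed to at most 32.7, 12.4 and 17.4 CPM, with the testis and ovary sums highest in *CSB* female replicate 1 and next highest in *CSB* male replicate 1. The yolk protein genes *Yp1*, *Yp2* and *Yp3*, made by the female fat body, summed to 78.5 and 53.2 CPM in *Obp56h*-/- males against 52700 and 45100 CPM in *Obp56h*-/- females, and to 1440 and 53.9 CPM in *CSB* males against 48300 and 48700 CPM in *CSB* females. *CSB* male replicate 1 thus stood apart from the other male libraries in yolk protein RNA. The medians of the comparisons that use it, and most of the counts, are given with and without it.

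Ribosomal protein genes were among the most strongly expressed genes of the head. Their levels are given as RPKM, the CPM after TMM scaling of the libraries divided by the gene length in kilobases, so that genes can be compared with each other. The median of the 74 genes that were the main copy of a family of related symbols, or alone in the table, was 483 RPKM. The median of all 13536 genes tested was 5.93 RPKM. A mean of at least 500 RPKM over the 8 libraries was measured for 36 ribosomal protein genes, 38 had 100 to under 500 RPKM, 4 had 10 to under 100 RPKM, and 9 had less than 10 RPKM.

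The 5 highest were all large-subunit genes. *RpL36* averaged 3085 RPKM over the 8 libraries, *RpL41*, which encodes the smallest protein of the ribosome, 2498 RPKM, *RpL39*, whose product lines the exit tunnel, 1437 RPKM, *RpL29* 1426 RPKM and *RpL23* 1366 RPKM. The level of *RpL36* was 2391 and 1925 RPKM in *Obp56h*-/- males, 3342 and 3940 RPKM in *Obp56h*-/- females, 3665 and 2268 RPKM in *CSB* males, and 3549 and 3599 RPKM in *CSB* females. The ranges over the libraries of *RpL39*, *RpL29* and *RpL23* overlapped, so these 3 had no fixed order. *RpL40* and *RpS27A*, which encode a ribosomal protein fused to ubiquitin, averaged 606 and 611 RPKM. *RpL38* was low for a single gene, with a mean of 76.5 RPKM, and *RpS10a* lower still, with 2.26 RPKM. The partner of *RpS10a*, *RpS10b*, is one of the genes not analysed here. *RpS10a* was thus counted among the single genes, and whether it is the main copy cannot be told from these counts.

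**Figure D1:**
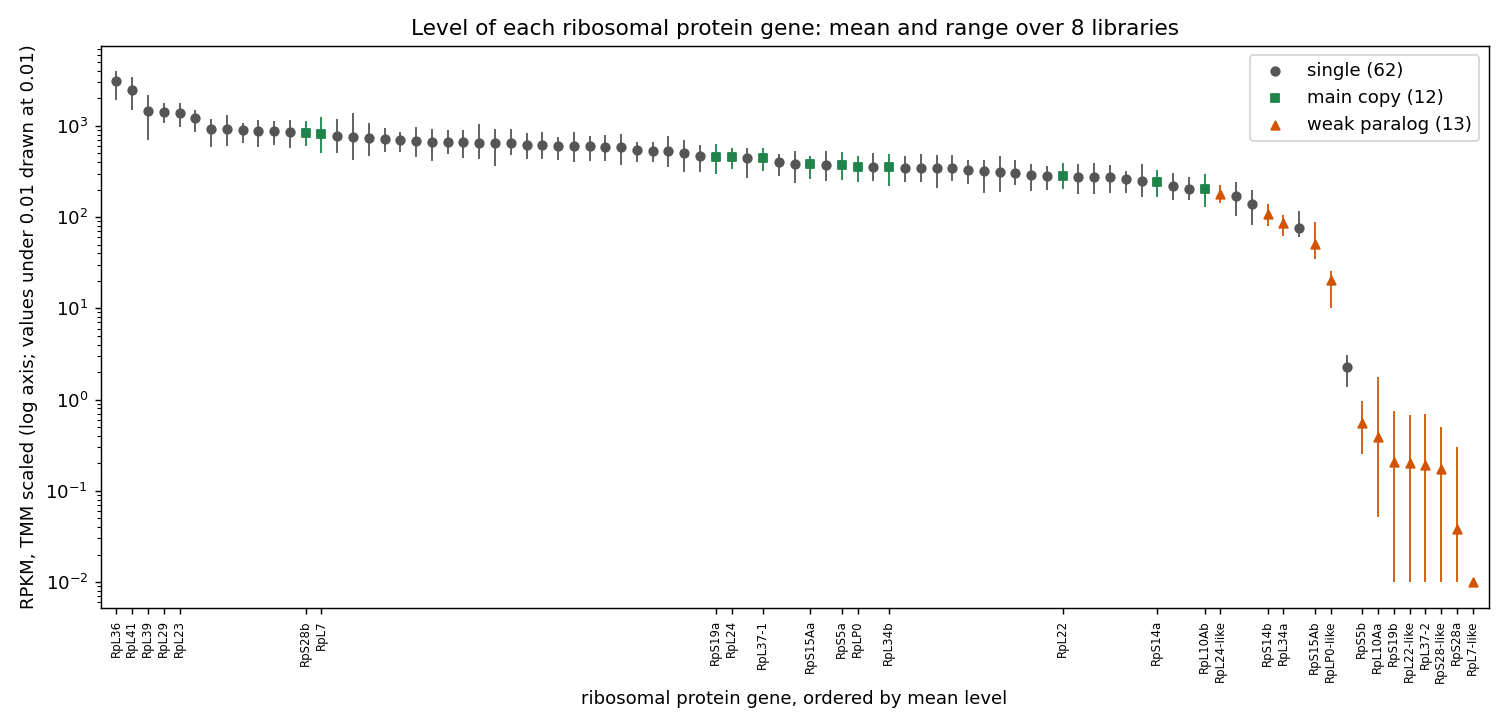
Mean level in RPKM (log axis) of each of the 87 ribosomal protein genes over 8 libraries, ordered from high to low, with vertical lines from the lowest to the highest library; the 5 highest genes and the 25 copies of families are named on the axis. The 12 main copies lie among the 62 single genes, while the 13 weak paralogs lie at the low end, from *RpL24-like* at 179 RPKM to *RpL7-like*, which has 0 counts and is drawn at 0.01.

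Genes whose symbols share a root, such as *RpS15Aa* and *RpS15Ab*, were taken as a family, and the 12 families held 25 of the 87 genes. Membership rests on the symbol and not on the protein. *RpL24-like* and *RpLP0-like* need not encode the same proteins as *RpL24* and *RpLP0*. In each family the gene with the highest mean level is called the main copy and the others weak paralogs, so that the difference in level between them follows from this choice and was not tested. The 12 main copies had a median of 374.8 RPKM and the 13 weak paralogs a median of 0.391 RPKM. The weak paralogs fell into a group of 5 with clear expression in heads and a group of 8 with next to none.

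The 5 expressed weak paralogs reached between 20.2 and 179 RPKM. *RpL24-like*, the counterpart of a yeast factor for assembly of the large subunit, averaged 179 RPKM against 452 RPKM for *RpL24*, and the ratio of *RpL24* to *RpL24-like* ranged over the libraries between 1.53 and 3.31. *RpS14b* averaged 107 RPKM beside 240 RPKM for *RpS14a*, and the ratio of these neighbours on X was 1.94 to 2.50. *RpL34a* averaged 85.6 RPKM beside 350 RPKM for *RpL34b*, a ratio of 3.02 to 5.94. *RpLP0-like*, which resembles the stalk protein *RpLP0* and whose yeast counterpart also acts in ribosome assembly, averaged 20.2 RPKM beside 357 RPKM for *RpLP0*, a ratio of 12 to 34.1.

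*RpS15Ab*, on 2R from 10821676 to 10822399, averaged 51.0 RPKM, and *RpS15Aa*, on X from 13335637 to 13337705, averaged 380 RPKM (BDGP6 assembly, Ensembl annotation). Both encode the small-subunit protein RpS15A, which binds the rRNA of the small subunit. The ratio of *RpS15Aa* to *RpS15Ab* ranged from 4.70 to 10.5 over the libraries. *RpS15Ab* was at 35 and 46.6 RPKM in *Obp56h*-/- males, 45.5 and 42.0 RPKM in *Obp56h*-/- females, 39.8 and 45.2 RPKM in *CSB* males, and 65.3 and 88.9 RPKM in *CSB* females. *RpS15Aa* was at 306 and 263 RPKM in *Obp56h*-/- males, 467 and 441 RPKM in *Obp56h*-/- females, 403 and 323 RPKM in *CSB* males, and 418 and 418 RPKM in *CSB* females. Only *CSB* females stood above the other groups for *RpS15Ab*, whereas for *RpS15Aa* *Obp56h*-/- females were highest and *Obp56h*-/- males lowest.

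The other 8 weak paralogs were at or near the floor. *RpS5b*, which in the fly is used mainly in the ovary, had 80 counts in all 8 libraries together and 5 to 16 in each, beside 81118 counts for *RpS5a*. *RpL10Aa* had 37 counts in all, with 2, 1, 1 and 3 in the *Obp56h*-/- libraries and 7, 2, 15 and 6 in the *CSB* libraries. *RpL22-like*, a germ-line copy of *RpL22*, had counts of 1 and 3 in *Obp56h*-/- males and 0 and 0 in *Obp56h*-/- females, against 9 and 7 in *CSB* males and 9 and 3 in *CSB* females. *RpS19b*, also a germ-line copy, had 19 counts in all, of which 9 were in *CSB* male replicate 1. The highest counts of *RpL10Aa*, *RpL22-like* and *RpS19b* were thus in the *CSB* libraries of replicate 1, in which the testis and ovary markers were also highest. The part of other tissue in these counts was not tested.

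*RpL37-2* had 13 counts in all, *RpS28-like* 8, *RpS28a* 1 and *RpL7-like* 0. *RpL7-like* shares 1771 of its 1793 bp with an exon of *CG34164* on the same strand, and whether reads from such a stretch were counted is not given in the sources used here. *RpL10Aa*, *RpS19b*, *RpL37-2*, *RpS28-like*, *RpS28a* and *RpL7-like* did not pass the filter on low counts, so that 81 of the 87 genes were tested.

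**Figure D2:**
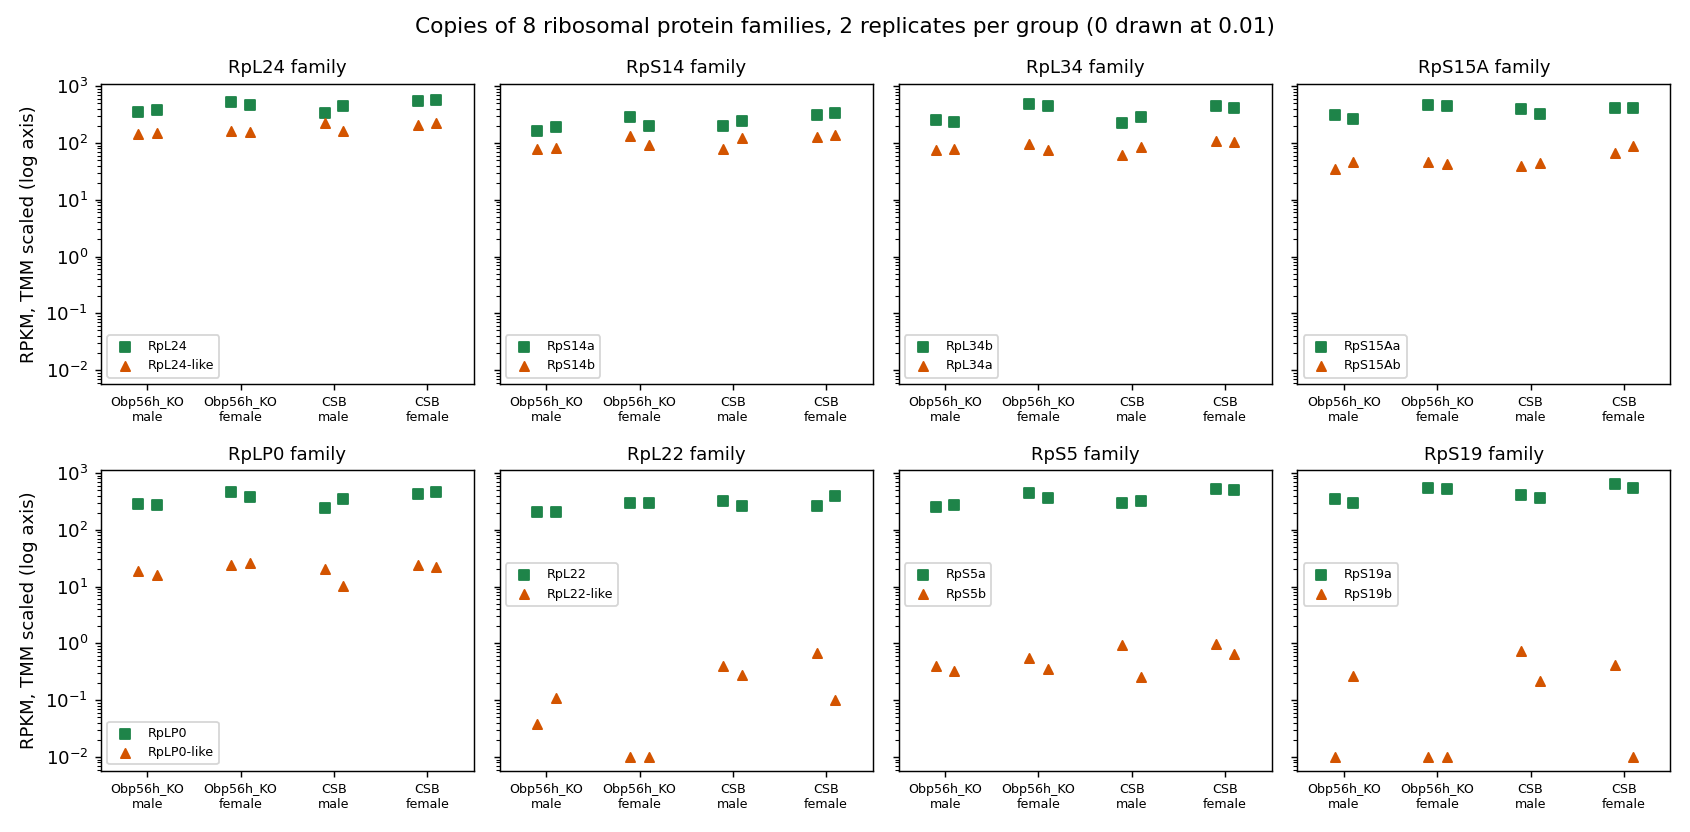
Level in RPKM (log axis) of the main copy (squares) and the weak paralog (triangles) of 8 families in the 2 replicates of each group. *RpL24-like*, *RpS14b*, *RpL34a*, *RpS15Ab* and *RpLP0-like* lie 1.53 to 34.1 times below their main copies in every library, and *RpL22-like*, *RpS5b* and *RpS19b* lie below 1 RPKM.

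Ribosomal protein mRNAs were lower in male heads than in female heads in both lines. Their share of all counted reads was 2.62% and 2.72% in *Obp56h*-/- males and 4.09% and 3.52% in *Obp56h*-/- females, and it was 3.89% and 3.33% in *CSB* males and 5.07% and 4.63% in *CSB* females. The 95% Wilson intervals of these shares, which cover counting error only, extend at most 0.0135 percentage points to either side. The males of a line were below the females of that line, and *Obp56h*-/- males were below all other libraries. For each tested gene, the deviation of log2(CPM + 0.5) from its mean over the 8 libraries was also taken. The median deviation of the 81 genes was -0.44 and -0.38 in *Obp56h*-/- males against 0.28 and 0.01 in *Obp56h*-/- females. It was -0.09 and -0.17 in *CSB* males against 0.39 and 0.38 in *CSB* females.

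**Figure D3:**
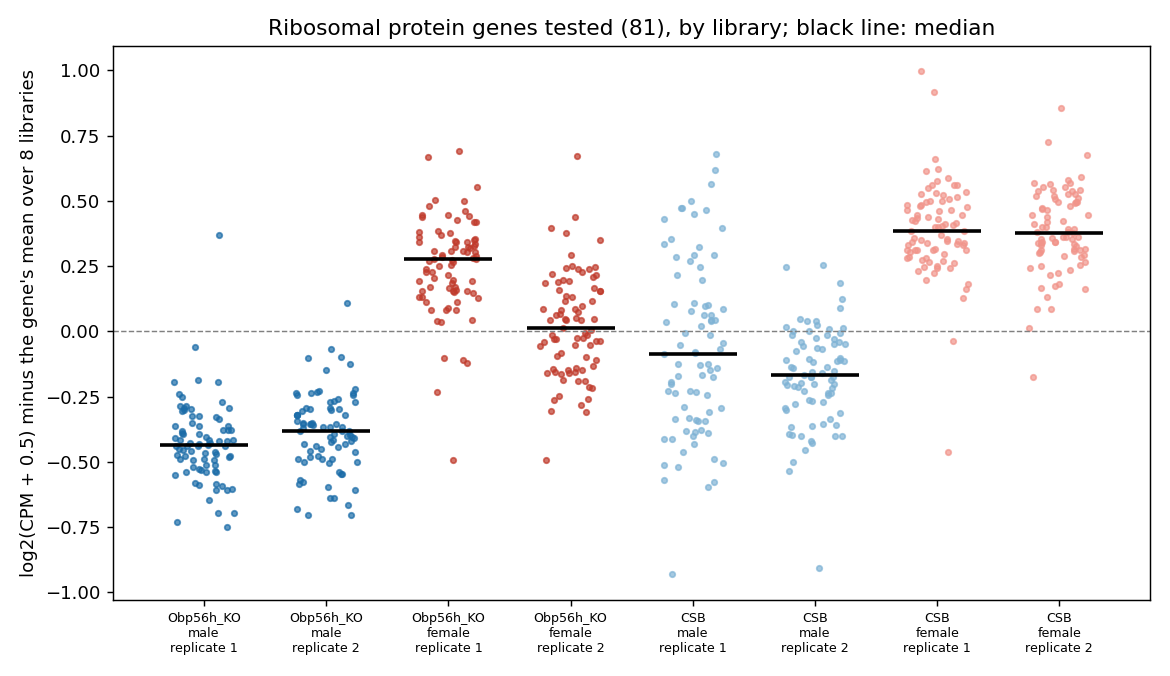
Deviation of each of the 81 tested ribosomal protein genes from its own mean over 8 libraries, on the log2(CPM + 0.5) scale, by library, with the median as a black line. The medians of the 4 male libraries lie between -0.44 and -0.09 and those of the 4 female libraries between 0.01 and 0.39, and the genes are most widely spread in *CSB* male replicate 1.

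Averaged over both lines, 61 of the 81 tested genes were lower in males than in females and 0 were higher (quasi-likelihood test of edgeR, Benjamini-Hochberg adjustment over all genes tested, threshold 0.05). Of all 13536 genes tested, 4.69% were lower in males by the same test. The log2 fold changes, male over female, of the 61 genes ran from -0.92 to -0.39. The median over the 81 genes was -0.54, with 79 genes below 0, and the median over all genes tested was -0.00. Both male libraries were below both female libraries in each line for 58 of the 81 genes (71.6%), and the same order held for 9.2% of all genes tested. Without *CSB* male replicate 1 the count of lower genes was 76 (6.7% of all genes tested) and the median -0.60, and without *Obp56h*-/- female replicate 1 the count was 40 (2.52%). It was 57 (3.13%) with a likelihood ratio test on GeTMM values, which are counts per kilobase scaled by TMM. Where the library totals were then recomputed from these values it was 31 (1.91%). That step removes the TMM scaling and moved the median of all genes to 0.17.

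The difference ran through both subunits and through the stalk. Of the large-subunit genes 38 of 48 tested were lower in males, with a median log2 fold change of -0.56, and of the small-subunit genes 23 of 33, with a median of -0.51. Among genes on X 9 of 13 were lower (median -0.51), and among autosomal genes 52 of 68 (median -0.55). Of the 53 tested genes without an exon shared with another gene 41 were lower (median -0.52). *RpLP0*, *RpLP1* and *RpLP2* were all lower in males, with log2 fold changes of -0.59, -0.79 and -0.50 and adjusted p of 0.00325, 0.000152 and 0.00866 (edgeR's quasi-likelihood test). *RpLP1*, for example, was at 416 and 415 RPKM in *Obp56h*-/- males and 886 and 616 RPKM in *Obp56h*-/- females, and at 535 and 570 RPKM in *CSB* males and 895 and 928 RPKM in *CSB* females.

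The 5 largest averaged differences were all in large-subunit genes. *RpL30*, which binds a kink in the rRNA and, in yeast, its own transcript, was at 122 and 102 RPKM in *Obp56h*-/- males and 226 and 186 RPKM in *Obp56h*-/- females. In *CSB* it was at 107 and 134 RPKM in males and 240 and 233 RPKM in females. All 4 male libraries were below all 4 female libraries, with a log2 fold change of -0.92 ± 0.11 (SE) and an adjusted p of 2.46e-05 (edgeR's quasi-likelihood test). *RpL13A* followed with -0.91 ± 0.14, and its level was 488 and 426 RPKM in *Obp56h*-/- males, 862 and 793 RPKM in *Obp56h*-/- females, 657 and 492 RPKM in *CSB* males, and 1389 and 861 RPKM in *CSB* females (adjusted p = 0.000253, edgeR). *RpL39* had -0.87 ± 0.12, *RpL34b* -0.85 ± 0.10 and *RpL36A*, whose product lies at the exit site for tRNA, -0.84 ± 0.11, with adjusted p of 0.000115, 3.01e-05 and 8.81e-05 (edgeR's quasi-likelihood test). Each of these 5 genes passed in all 20 alternative analyses.

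Among small-subunit genes *RpS29*, which encodes a zinc-binding protein, was at 430 and 469 RPKM in *Obp56h*-/- males against 783 and 605 RPKM in *Obp56h*-/- females, and at 400 and 499 RPKM in *CSB* males against 857 and 726 RPKM in *CSB* females. All 4 male libraries were below all 4 female libraries (-0.72 ± 0.12, adjusted p = 0.000468, edgeR). The main copies *RpS5a* and *RpS19a*, whose germ-line paralogs were near the floor, were lower in males by similar amounts (-0.67 and -0.69, adjusted p of 0.000299 and 0.000221, edgeR). *RpS19a* was at 345 and 297 RPKM in *Obp56h*-/- males against 542 and 527 RPKM in *Obp56h*-/- females, and at 402 and 362 RPKM in *CSB* males against 637 and 552 RPKM in *CSB* females. *RpL10Ab* (-0.70) and *RpL37-1* (-0.65) were lower as well. The main copies *RpL22* (-0.36), *RpL7* (-0.34) and *RpS28b* (-0.24) did not pass (adjusted p of 0.0901, 0.302 and 0.477, edgeR's quasi-likelihood test). In *CSB* males *RpL7* was at 1240 and 586 RPKM and *RpS28b* at 1121 and 603 RPKM, so that their averages depend on replicate 1. Over the 20 alternatives the log2 fold change ran from -0.555 to -0.172 for *RpL22*. It ran from -0.72 to -0.133 for *RpL7* and from -0.52 to -0.0559 for *RpS28b*.

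The ubiquitin fusion genes *RpL40* and *RpS27A* were also lower in males, with log2 fold changes of -0.52 and -0.67 (adjusted p of 0.00159 and 0.000254, edgeR). Among the most abundant genes, *RpL36*, *RpL41* and *RpL23* were lower, with log2 fold changes of -0.51, -0.61 and -0.68, and *RpL29* had -0.41 and did not pass (adjusted p = 0.0567, edgeR's quasi-likelihood test). In all, 20 of the 81 genes did not pass in the average. Of these, 18 had a log2 fold change below 0, among them *RpL7*, *RpL14*, *RpL28*, *RpS18*, *RpS20* and *RpS28b*, and *RpS10a* and *RpL22-like* had one above 0. *RpL24-like* had -0.14 ± 0.11 (0.040 with the library totals of GeTMM recomputed), and *RpS10a* had 0.52 ± 0.40 at levels of 1.37 to 3.09 RPKM.

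Within *Obp56h*-/- flies 35 of the 81 genes were lower in males (2.36% of all genes tested) and 0 were higher, with a median log2 fold change of -0.57. Within *CSB* flies 26 were lower (1.92% of all genes tested) and 0 were higher, with a median of -0.51. The 2 lists shared 17 genes, which are 17 of 35 and 17 of 26. In *Obp56h*-/- the largest differences were those of *RpL36A* (-0.93), *RpL34b* (-0.93), *RpL39* (-0.88), *RpL30* (-0.88) and *RpL37A* (-0.87). In *CSB* they were those of *RpL13A* (-0.97), *RpL30* (-0.97), *RpS15Ab* (-0.87), *RpL39* (-0.86) and *RpS29* (-0.81). The *CSB* median was -0.64 without *CSB* male replicate 1. *RpL34b* was at 257 and 238 RPKM in *Obp56h*-/- males and 491 and 453 RPKM in *Obp56h*-/- females, beside 221 and 284 RPKM in *CSB* males and 445 and 412 RPKM in *CSB* females. With the library totals of GeTMM recomputed the counts were 3 in *Obp56h*-/- and 4 in *CSB* (0.864% and 0.85% of all genes tested). The counts within a line moved strongly with single libraries. For *Obp56h*-/- the count was 3 without *Obp56h*-/- female replicate 1, 8 and 2 without *Obp56h*-/- male replicates 1 and 2, and 69 without either library of *CSB* males (4.79% and 4.49% of all genes tested). For *CSB* it was 7 without *CSB* female replicate 1, 53 and 40 without *CSB* male replicates 1 and 2 (3.1% and 4.45% of all genes tested), and 17 and 15 without *Obp56h*-/- male replicates 1 and 2.

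**Figure D4:**
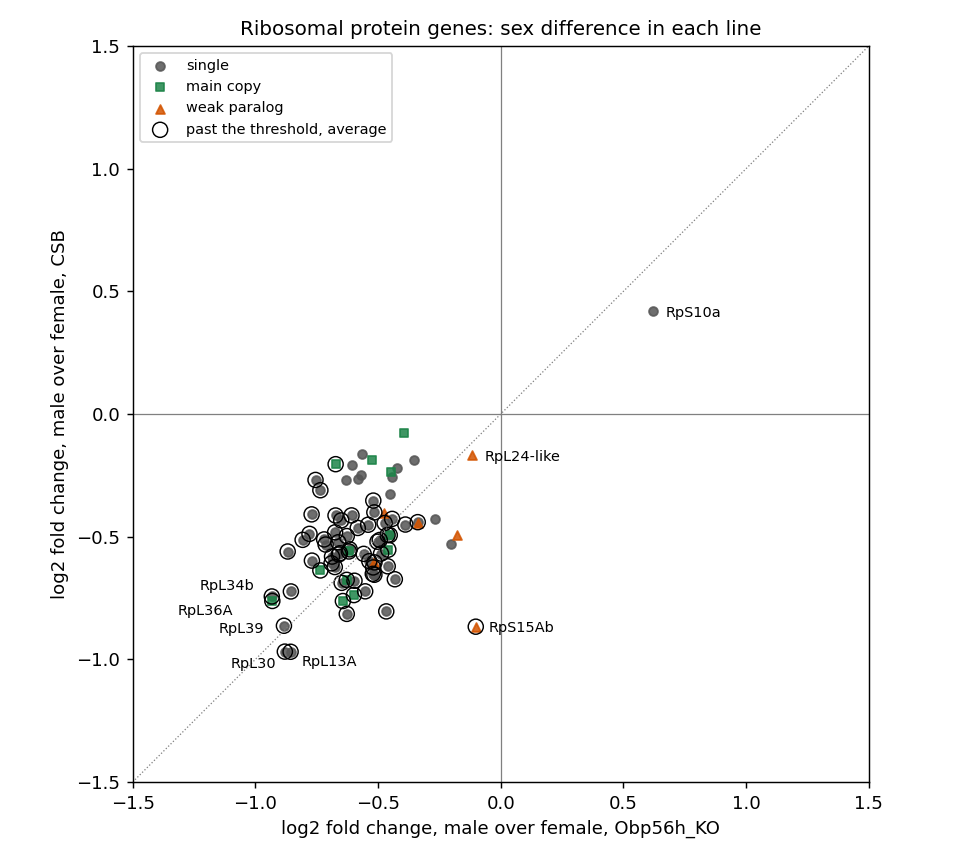
Log2 fold change, male over female, of the tested ribosomal protein genes in *Obp56h*-/- flies (horizontal) and in *CSB* flies (vertical), with rings around the 61 genes that passed in the average. *RpL30* and *RpL13A* lie farthest to the lower left and *RpS15Ab* lies at -0.10 and -0.87, while *RpL22-like*, with a fitted value of 3.96 in *Obp56h*-/- that rests on 4 counts, lies outside the axes.

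The main copies and their weak paralogs could be compared for 7 paralogs that were tested. Of the 74 main and single genes 59 were lower in males in the average, and of the 7 tested weak paralogs 2 were (*RpS15Ab* and *RpLP0-like*). *RpL24* was lower in males (-0.47, adjusted p = 0.0104) while *RpL24-like* had -0.14 (adjusted p = 0.611, edgeR's quasi-likelihood test). *RpL34b* was lower (-0.85) while *RpL34a* had -0.33 (adjusted p = 0.127), and *RpS14a* was lower (-0.51, adjusted p = 0.0144) while *RpS14b* had -0.44 (adjusted p = 0.0731, edgeR). *RpLP0-like* was lower by a similar size as *RpLP0* (-0.56, adjusted p = 0.0475, edgeR), but passed in 10 of the 20 alternatives. Whether the difference of a weak paralog departs from that of its main copy was not tested.

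Other genes of the translation machinery were examined as lists. The proteins of *sta* (RpSA) and *Rack1* are also part of the small subunit but do not carry the Rp symbols, and both were lower in males, with log2 fold changes of -0.86 and -0.81 (adjusted p of 0.000114 and 2.97e-05, edgeR). Of 26 listed translation factors and associated proteins, these 2 included, 10 were lower in males and 0 were higher, among them *eEF1alpha1* (-0.60) and *eEF1gamma* (-0.68), parts of the elongation factor complex that brings tRNA to the ribosome. Of 24 genes for ribosome assembly 10 were lower, led by the nucleolar genes *nop5* (-1.20), *Nop56* (-1.15), *Nop60B* (-1.14) and *Fib* (-1.08), which guide or carry out modification of rRNA. Of 9 genes that control ribosome production *Myc* (-0.94) and *Thor* (-1.1), which encodes a protein that binds eIF4E, were lower. Of 70 tested mitochondrial ribosomal protein genes 0 were lower and 1 was higher, with a median of -0.01 and 1 lower at an unadjusted p under 0.05, as were 9.9% of all genes tested. Among 233 other genes with a mean of at least 200 RPKM, 52 were lower and 22 higher in males, with a median of -0.08, and among 3253 other tested genes of at most 1000 bases the median was -0.04.

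The yolk protein genes differed between the sexes in the direction of the ribosomal protein genes. The part of fat body tissue in the sex difference was not tested. In RNA from whole heads, fewer cells of a type and less RNA per cell cannot be told apart.

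Between the lines, the ribosomal protein genes had mostly lower levels in *Obp56h*-/- flies, with smaller medians than between the sexes, and few passed the test one by one. In females 1 of the 81 genes, *RpS15Ab*, was lower in *Obp56h*-/- and 0 were higher, where 0.436% of all genes tested were lower. The median log2 fold change, *Obp56h*-/- over *CSB*, was -0.24 with 69 genes below 0, and the median of all genes tested was -0.03. It was -0.375 without *Obp56h*-/- female replicate 1 and -0.11, with 59 of 83 genes below 0, without *Obp56h*-/- female replicate 2. In males 0 of the 81 genes passed in either direction by edgeR's quasi-likelihood test, where 0.502% of all genes tested passed. At an unadjusted p under 0.05 there were 36 (35 lower and 1 higher), beside 9.15% of all genes tested, and the count of genes that passed was 0 with edgeR's likelihood ratio test and 10 with DESeq2. The median in males was -0.31 with 77 genes below 0, and that of all genes tested was -0.05. Without *CSB* male replicate 1 it was -0.20 with 70 of 82 genes below 0.

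Both *Obp56h*-/- libraries were below both *CSB* libraries in each sex for 38 of the 81 genes (46.9%), and for 9.45% of all genes tested. The count in females was 11 without *CSB* male replicate 1 (10 lower and 1 higher) and 10 without *CSB* male replicate 2 (9 lower and 1 higher), where 3.63% and 3.57% of all genes tested passed in either direction. It was 2 without *Obp56h*-/- female replicate 1 (0.646% of all genes) and 0 without *Obp56h*-/- female replicate 2. The count in males was 25 without *CSB* male replicate 2 (24 lower and 1 higher), where 5.19% of all genes tested passed, and 2 without *CSB* male replicate 1 (1 lower and 1 higher), where 1.04% passed.

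*RpS15Ab* was at 45.5 and 42.0 RPKM in *Obp56h*-/- females, against 65.3 and 88.9 RPKM in *CSB* females. These values did not overlap, and the log2 fold change was -0.82 ± 0.18 (SE; adjusted p = 0.0277, edgeR's quasi-likelihood test). The call held in 17 of the 20 alternatives and was lost when *Obp56h*-/- female replicate 1, *Obp56h*-/- female replicate 2 or *CSB* female replicate 2 was left out (adjusted p up to 0.261 over the 20 alternatives, edgeR). In males *RpS15Ab* was at 35 and 46.6 RPKM in *Obp56h*-/-, against 39.8 and 45.2 RPKM in *CSB*, values that overlapped (-0.06 ± 0.18, adjusted p = 0.949, edgeR). The same 8 values gave *RpS15Ab* a sex difference in *CSB* (-0.87, adjusted p = 0.0106, edgeR) and a log2 fold change of -0.10 in *Obp56h*-/- (adjusted p = 0.946).

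Its main copy *RpS15Aa* had log2 fold changes of 0.12 ± 0.15 in females and -0.35 ± 0.15 in males, neither past the threshold (adjusted p of 0.793 and 0.490, edgeR). The genotype effect in males minus that in females was 0.77 ± 0.25 for *RpS15Ab* and -0.47 ± 0.21 for *RpS15Aa*. These were the only ribosomal protein genes with an unadjusted p under 0.05 for this difference (0.00723 and 0.0366), as 3.05% of all genes tested had, and for both the adjusted p was 1.0 (edgeR's quasi-likelihood test). The median of this difference over the 81 genes was -0.07, and it was 0.05 without *CSB* male replicate 1. Of the 81 genes 0 passed for this difference in either direction, where 0.0369% of all genes tested passed. The count was also 0 with edgeR's likelihood ratio test and with DESeq2. It was 3 without *CSB* male replicate 2, where 1.44% of all genes passed. The genotype effect was thus not shown to differ between the sexes for any of the 81 genes.

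Averaged over the sexes 5 of the 81 genes were lower in *Obp56h*-/- and 0 were higher, where 1.05% of all genes tested were lower. They were *RpL7*, *RpS3*, *RpL28*, *RpL23A* and *RpL32*, and the median over the 81 genes was -0.28 with 76 below 0. *RpS3*, which lines the entry of the mRNA channel, was at 452 and 484 RPKM in *Obp56h*-/- males against 804 and 590 RPKM in *CSB* males, and at 695 and 530 RPKM in *Obp56h*-/- females against 968 and 935 RPKM in *CSB* females. In neither sex did the lines overlap, and the log2 fold change was -0.60 ± 0.12 (SE; adjusted p = 0.00822, edgeR's quasi-likelihood test), past the threshold in 19 of 20 alternatives.

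*RpL23A*, whose product sits at the mouth of the exit tunnel, was at 433 and 470 RPKM in *Obp56h*-/- males against 576 and 629 RPKM in *CSB* males, and at 700 and 517 RPKM in *Obp56h*-/- females against 881 and 1041 RPKM in *CSB* females. Its groups also did not overlap within a sex (-0.54 ± 0.11, adjusted p = 0.0143, edgeR). *RpL32*, a large-subunit gene often used as a reference in fly quantitative PCR, had -0.46 ± 0.10 (adjusted p = 0.0244, edgeR), with 245 and 207 RPKM in *Obp56h*-/- males against 343 and 309 RPKM in *CSB* males. In females it was at 392 and 324 RPKM in *Obp56h*-/- against 459 and 477 RPKM in *CSB*. *RpL23A* passed in 18 and *RpL32* in 16 of the 20 alternatives.

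*RpL28* had -0.59 ± 0.13 (adjusted p = 0.0242) and *RpL7* -0.66 ± 0.16 (adjusted p = 0.042, edgeR's quasi-likelihood test). *RpL7* was at 508 and 566 RPKM in *Obp56h*-/- males against 1240 and 586 RPKM in *CSB* males, and at 717 and 747 RPKM in *Obp56h*-/- females against 987 and 1166 RPKM in *CSB* females. *RpL28* was at 315 and 362 RPKM in *Obp56h*-/- males against 667 and 420 RPKM in *CSB* males, and at 508 and 414 RPKM in *Obp56h*-/- females against 596 and 704 RPKM in *CSB* females. For both genes *CSB* male replicate 1 was far above replicate 2. *RpL7* passed in 10 of the 20 alternatives, and without *CSB* male replicate 1 it did not pass, whereas *RpL28* passed in 16. The count of 5 was 20 without *CSB* male replicate 1 (18 lower and 2 higher, with a median of -0.22) and 35 without *CSB* male replicate 2 (34 lower and 1 higher), where 4.52% and 11.1% of all genes tested passed in either direction. It was 14 without *Obp56h*-/- female replicate 1 (1.56% of all genes), 1 without *Obp56h*-/- female replicate 2 and 2 without *Obp56h*-/- male replicate 1.

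**Figure D5:**
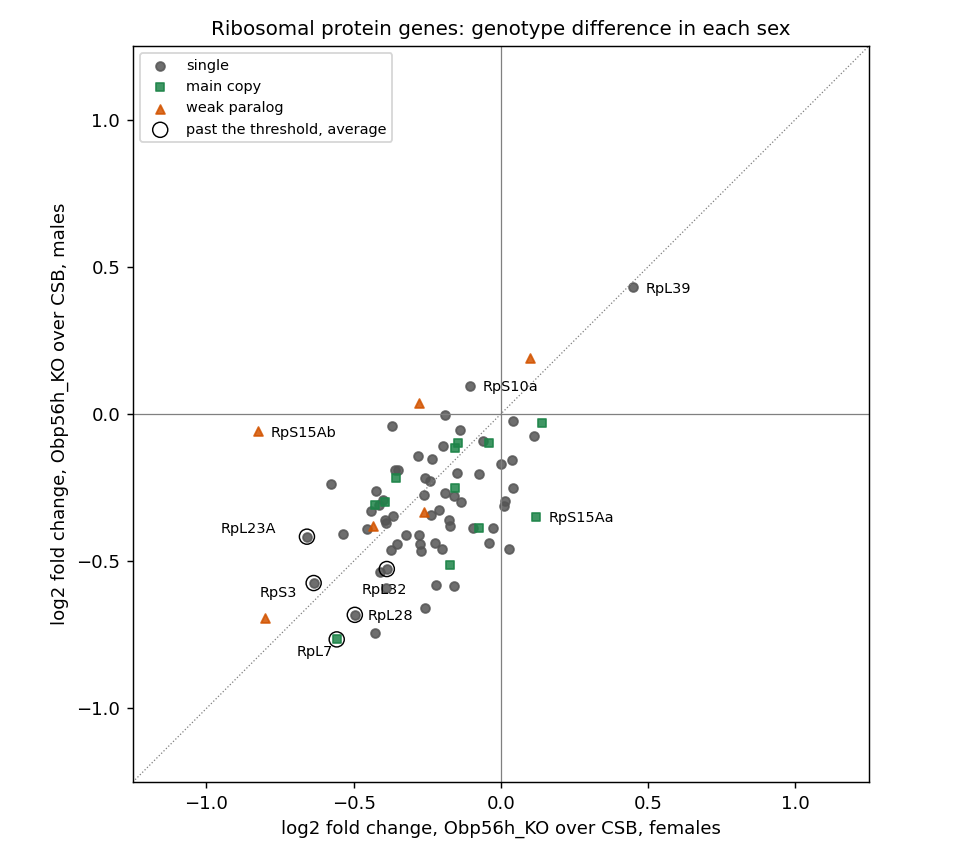
Log2 fold change, *Obp56h*-/- over *CSB*, of the tested ribosomal protein genes in females (horizontal) and in males (vertical), with rings around *RpL7*, *RpS3*, *RpL28*, *RpL23A* and *RpL32*, the 5 genes that passed in the average. Most genes lie in the lower left part of the plot, *RpS15Ab* lies at -0.82 in females and -0.06 in males, *RpL39* is the farthest to the upper right, and *RpL22-like*, with counts of 0 and 0 in *Obp56h*-/- females and a fitted value of -6.20 that is no bound, lies outside the axes.

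The study names *RpS2*, *RpS3*, *RpS15Ab*, *RpL3*, *RpL7* and *RpL28*, which it chose on these same samples, so that their values are not independent evidence. In females *RpS2*, which also lies at the mRNA entry, had a log2 fold change of -0.58 (adjusted p = 0.241), *RpS3* -0.64 (adjusted p = 0.0875) and *RpL3*, a protein near the peptidyl transferase centre, -0.54 (adjusted p = 0.248, edgeR's quasi-likelihood test). *RpL7* had -0.56 (adjusted p = 0.390) and *RpL28* -0.50 (adjusted p = 0.354). *RpS2* was at 373 and 241 RPKM in *Obp56h*-/- females against 470 and 445 RPKM in *CSB* females, and *RpL3* at 273 and 217 RPKM against 329 and 382 RPKM. In each of these genes both *Obp56h*-/- female libraries were below both *CSB* female libraries. With the likelihood ratio test on GeTMM values 1 of the 81 genes passed in females (0.96% of all genes tested), and *RpS2*, *RpS3*, *RpL3*, *RpL7* and *RpL28* did not. With library totals recomputed 4 passed (0.813%), *RpS3* and *RpS15Ab* among them, and *RpS2*, *RpL3*, *RpL7* and *RpL28* did not. Which form the study used is not given in the sources used here.

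A log2 fold change above 0 in the average was found for 5 genes (*RpL39*, *RpLP0-like*, *RpL34b*, *RpL36A* and *RpS30*). The largest was that of *RpL39*, at 1178 and 1149 RPKM in *Obp56h*-/- males against 706 and 1021 RPKM in *CSB* males, and at 2145 and 2149 RPKM in *Obp56h*-/- females against 1784 and 1361 RPKM in *CSB* females. The lines did not overlap in either sex, and the log2 fold change of 0.44 ± 0.12 did not pass (adjusted p = 0.0749, edgeR's quasi-likelihood test), although it passed in 8 of the 20 alternatives.

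The listed genes around the ribosome had few calls between the lines. Averaged over the sexes 0 of 26 translation factors passed, with a median of -0.08 and 7 at an unadjusted p under 0.05, which 18.6% of all genes tested reached, and *eEF1gamma* had -0.36 (adjusted p = 0.091, edgeR). Of 24 genes for ribosome assembly 1 was lower, *Non1*, which encodes a nucleolar GTPase, with -0.50 (adjusted p = 0.0175, edgeR). Of 70 mitochondrial ribosomal protein genes 0 passed, with a median of 0.00 and 7 at an unadjusted p under 0.05. The 233 other genes with at least 200 RPKM had a median of 0.10, with 5 lower and 15 higher in *Obp56h*-/-.

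The replicates of a group differed most from gene to gene in *CSB* males, and in *Obp56h*-/- females 65 of the 74 main and single genes were higher in replicate 1. Over these 74 genes, the log2 ratio of replicate 1 to replicate 2 had an SD of 0.188 in *Obp56h*-/- males, 0.184 in *Obp56h*-/- females, 0.427 in *CSB* males and 0.212 in *CSB* females. Its median was -0.05 in *Obp56h*-/- males, 0.26 in *Obp56h*-/- females, 0.01 in *CSB* males and -0.02 in *CSB* females, and that of other genes in *Obp56h*-/- females was 0.04. The median of 0.26 between replicates of *Obp56h*-/- females is about the size of the genotype median of -0.24 in females. In *CSB* males it ran from -0.70 for *RpL10Ab* to 1.16 for *RpS20*, with 11 genes more than 1.5 times higher and 3 more than 1.5 times lower in replicate 1. *RpS20* was at 1078 and 484 RPKM in *CSB* males, *RpL7* at 1240 and 586 RPKM and *RpS28b* at 1121 and 603 RPKM. Of the 11 genes 9 were among those that did not pass between the sexes in the average.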

How the data were processed

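The RNA libraries, 8 in all, came from heads of male and female flies of the *Obp56h*-/- and *CSB* lines. Reads were trimmed and filtered (AfterQC), screened for rRNA (bbduk) and aligned to release 6 of the D. melanogaster genome (GSNAP), and the authors deposited the raw counts of uniquely aligned reads per gene (Subread) beside the gene lengths. How the counting treated strand and overlapping genes is not given in the sources used here, so that counts of the 30 ribosomal protein genes that share exon bases with another gene, and of near-identical copies such as *RpS14a* and *RpS14b*, are less certain. No library was dropped, and the number of value columns left out was 0. Groups and replicate numbers were taken from the labels, and p-values measure the spread between pools of 50 flies.

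Positions and overlaps came from the Ensembl annotation of BDGP6, which held 17288 of the 17490 genes and lacked 202. The tests were run with edgeR 4.0.16 (R 4.3.3) after filterByExpr (smallest count 10) and TMM scaling, with all 4 groups in 1 quasi-likelihood model with 4 residual degrees of freedom. Contrasts were genotype in females, in males, their average and their difference, and sex in each line and its average, each with Benjamini-Hochberg adjustment over 13536 genes and a threshold of 0.05. The study's likelihood ratio test on GeTMM values was an alternative. CPM and RPKM were computed from the deposited counts and gene lengths with TMM scaling.

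The members, families and lists were chosen with earlier results of these data known. Named genes were every copy of a family, the 5 highest and 5 lowest by level, genes that passed in a comparison (the 5 largest where more than 10 passed), and the 6 that the study names. Others (*RpS10a*, *RpL38*, *RpL40*, *RpS27A*, *RpLP1*, *RpLP2*, *RpL14*, *RpS18*, *RpS20*, *RpS30*) and the genes named from the lists were named after their values were seen. The alternatives were a likelihood ratio test, DESeq2 1.42.0, RLE factors, library size alone, TMM without the ribosomal protein genes, no filter, at least 10 counts in every library, the replicate number as a block, GeTMM, both *CSB* replicate 1 libraries left out, each library left out in turn, and, as 2 added after seeing the data, TMM factors from counts per kb and GeTMM with library totals recomputed. The GeTMM alternative was first run with recomputed totals and then corrected to keep the TMM scaling, and both forms are reported. The tests were tried on simulated counts, in which 200 genes with a mean count of at least 500 were changed 1.5-fold. Of these 92% were recovered for the sex average and 89.5% for the genotype average. Only 29.5% were recovered for the sexes in *Obp56h*-/- and 35% for the genotype in females. False calls made up 4.17%, 8.21%, 10.6% and 7.89% of the calls in these 4 comparisons, in that order. The genotype medians of the ribosomal protein genes (-0.24 in females and -0.28 in the average) are smaller than a 1.5-fold change. Recovery at that size was not simulated. The simulated libraries shared a common profile of mean counts, with no library that stood apart like *CSB* male replicate 1. *eEF5*, *Tor* and *nos*, on the lists, and a planned search of promoter motifs were not analysed here. Plots were drawn with matplotlib 3.10.9.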

Additional observations from a re-analysis of the deposited data

How the results depend on the processing

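The sign of the median over the 81 genes was negative in all 20 alternatives for the sex and the genotype comparisons. For the difference of the genotype effect between the sexes it was not negative in all of them. The median minus that of all genes tested ran from -0.59 to -0.48 for the sex average and from -0.29 to -0.18 for the genotype average. Library size alone put the median of all genes at -0.14 in each genotype comparison, a move of more than 0.1 in females and in the average, and gave 79 of 81 genes below 0 in the genotype average. GeTMM with library totals recomputed, chosen after seeing the data, moved it to 0.21 for the sexes in *Obp56h*-/-, 0.13 in *CSB* and 0.17 in their average. The counts were then 3, 4 and 31 genes (2.28%, 1.9% and 6.18% of all genes tested in either direction). For the genotype they were 4 in females and 10 in the average (0.813% and 1.21%). *RpL24-like* changed sign to 0.040 in the sex average and *RpS15Ab* to 0.13 between the sexes of *Obp56h*-/-.

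The counts of genes that passed moved with the test and the filter, and so did the shares of all genes tested. Shares of all genes tested that passed in either direction are given in brackets. For the genotype average and the sexes within a line they follow the counts. For the genotype in females (1 gene, 1.03%) the count was 3 with the likelihood ratio test (2.13%), 4 with DESeq2 (1.69%) and 2 with RLE factors (1.06%). It was 3 with library size alone (0.672%) and 2 with TMM without the ribosomal protein genes (0.953%). With no filter it was 4 (2.5%), and with a minimum of 10 counts per library 2 (0.916%). For males (0 genes, 0.502%) the count was 10 with DESeq2 (0.532%), 1 with library size alone (0.399%) and 7 with no filter (1.68%). For the genotype average (5 genes) it was 26 with the likelihood ratio test, 30 with DESeq2, 27 with library size alone, 24 with no filter, 11 with at least 10 counts, 3 with GeTMM and 13 without both *CSB* replicate 1 libraries. For the sexes in *Obp56h*-/- (35 genes) it was 57 with DESeq2 and 62 without both *CSB* replicate 1 libraries, and in *CSB* (26 genes) it was 51 with DESeq2, 40 with TMM without the ribosomal protein genes and 40 with at least 10 counts. For the genotype average 1.93% of all genes tested passed in the main test. The share was 8.45% with the likelihood ratio test, 6.29% with DESeq2 and 5.77% with no filter. It was 1.89% with library size alone, 1.6% with at least 10 counts and 1.27% with GeTMM. For the sexes in *Obp56h*-/- it was 3.19%, and 3.71% with DESeq2. In *CSB* it was 2.9%, with 3.38% for DESeq2, 3.22% for TMM without the ribosomal protein genes and 4.1% for at least 10 counts. The causes were not tested.

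With 1 library left out, the count ran from 0 to 11 for the genotype in females, from 0 to 25 in males, from 1 to 35 in the average and from 0 to 3 for the difference between the sexes, and from 2 to 69 for the sexes in *Obp56h*-/-, from 7 to 53 in *CSB* and from 40 to 76 in their average. The share of all genes tested that passed also moved between these fits in every comparison. The ranges are therefore not a property of the ribosomal protein genes alone. Where 1 library of a group remained, it was assumed to vary like the other groups. With 1 library left out, the log2 fold change of *RpS15Ab* in males ran from -0.28 to 0.14 and was above 0 without *Obp56h*-/- male replicate 1 (0.14) and without *CSB* male replicate 2 (0.07). Between the sexes of *Obp56h*-/- it ran from -0.27 to 0.089, with 0.089 without *Obp56h*-/- male replicate 1.

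Nothing in the sources pairs the pools by their number. The numbers were therefore not taken as pairs. Deviations of same-numbered libraries from their group means correlated at 0.533 between *CSB* females and *CSB* males over 13536 genes and at -0.0122 to 0.088 between other groups. Over the tested ribosomal protein genes the correlation was 0.049 between *CSB* females and *CSB* males and -0.412 to -0.039 between other groups. What the *CSB* libraries of the same number share was not tested, and the main test treats them as independent. With the replicate number as a block the counts were 3 for the genotype in females (1.64% of all genes tested), 0 in males (0.946%) and 16 in the average (3.87%). For the sex average the count was 65 (7.31%). Depth limits the genes with few counts most, and a floor of 3 counts is 0.122 to 0.276 CPM. *RpL22-like*, *RpS5b* and *RpS10a* did not pass in any comparison, and what size of difference could be detected at their counts was not tested.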

Other observations

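Of the 87 ribosomal protein genes 26 span small nucleolar RNA genes, 71 in all, and in 6 of them a nucleolar RNA shares bases with an exon. Across the 74 main and single genes the Spearman correlation of gene length with the log2 fold change, male over female, was 0.0883, and with the log2 fold change, *Obp56h*-/- over *CSB*, -0.203, each a description over genes that share the same 8 libraries. Over all 13536 genes tested these correlations were 0.0926 and 0.185.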
